A study of Xenopus laevis with 46 samples.

Results

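The ephrins and their Eph receptors were examined in embryos of the frog Xenopus laevis at the late blastula and early gastrula. Members were all rows of the deposited gene tables whose human match was an ephrin-A, ephrin-B, EphA or EphB symbol. The rule found 46 of 43662 rows at stage 10.5, the early gastrula, and 44 of 37005 rows at stage 9, the late blastula. The 46 rows carried 17 human symbols and comprised 9 ephrin-A, 5 ephrin-B, 20 EphA and 12 EphB rows. No row had EFNA4, EFNB3, EPHA1, EPHB5 or EPHB6 as its human match, and the rows named epha10.L and epha10.S were matched to EPHA7.

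Ephrins are ligands held at the cell surface, the A class by a lipid anchor and the B class by a transmembrane stretch. Eph receptors are tyrosine kinases that bind them on neighbouring cells, and signals can run into the receptor cell and back into the ligand cell. In the frog gastrula the pathway is known for keeping the ectoderm and mesoderm apart at Brachet's cleft, through repulsion of cells that carry ligand and receptor on opposite sides of the boundary. X. laevis is an allotetraploid whose genes often have an L and an S copy, so several rows can stand for the same vertebrate gene.

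The study asked how the early β-catenin signal, Wnt, Nodal and Siamois build the Spemann organizer, the dorsal tissue that directs the body axis. At stage 10.5 embryos bisected at stage 8 and then grown on gave 5 libraries of dorsal pieces (Dhalf) and 5 of ventral pieces (Vhalf). Whole embryos of stage 10.5 gave 3 libraries after a β-catenin morpholino (bCatMO), 2 after lithium chloride (LiCl), 2 after 100 pg of siamois mRNA (Sia), 3 labelled as injected with xWnt8 mRNA (Wnt8), 3 injected with xCer L mRNA (Cer) and 6 of controls. Stage 9 had 2 bCatMO, 2 LiCl, 2 Sia, 3 Wnt8, 3 Cer and 5 control libraries of whole embryos. The morpholino blocks translation of β-catenin, lithium stabilises β-catenin, siamois is a homeobox gene switched on by it, and Cerberus is a secreted antagonist of Nodal, BMP and Wnt ligands. All embryos were of the Nasco strain, and morpholino or mRNA went in at the 2-cell to 4-cell stage, lithium at the 32-cell stage. RNA came from whole or bisected embryos, so germ layers were not separated. The labels name for each treated library a control library of the same batch. For replicate 1 of Wnt8 and of Cer at stage 10.5, 1 label field names stage 10 and the others stage 10.5.

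Values are the authors' RPKM, reads scaled by row length and library size. Each fold change is a difference of log2(RPKM + 0.5), given with its standard error (SE) from limma's moderated fit. A row was called at an adjusted p below 0.05 over all rows tested, and group values are means ± SD. Where groups are said not to overlap, this describes the named rows, and the share of all rows without overlap was not computed. Control values printed for members beside a treated group are from the controls that share its batches. The log2 fold changes come from 1 fit per stage of all whole embryos with batch terms, so they can differ from those of the printed values. A fit without the batch term sets each group against all controls of its stage. Reads in genes, recovered from the RPKM, had a median of 35.2 M (megareads) per library at stage 10.5, with extremes of 24.5 and 45.0 M, and of 38.5 M at stage 9, with extremes of 27.9 and 58.5 M. The labels do not say that replicates came from separate clutches, so p-values cover only how these samples vary, which may be technical variation. The supplied cer1.S message stood at 4247 to 5762 RPKM in stage 10.5 Cer libraries against 59.2 to 115 in all 6 controls of the stage. Xelaev18019203m, the row the authors name Siamois, stood at 638 to 660 RPKM in Sia libraries against 5.95 to 22.3 in the same 6 controls. The wnt8a.L row had 26.4 to 55.9 RPKM in the libraries labelled Wnt8 against 43.6 to 102 in the 6 controls, so this row did not check that label. The β-catenin message cannot check a morpholino that acts on translation. In a fit without pairing, dorsal pieces had 23 of 28 tested rows of organizer markers higher than ventral pieces. Their summed level was 1726 to 2720 RPKM against 455 to 609. The bisected-embryo libraries numbered 1 stood apart from the other pairs for several members, and the results of the pieces are given with and without them.

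At stage 10.5, 24 of the 46 rows had a mean above 1 RPKM in controls, and 20 were above 1 RPKM in all 29 libraries. Another 8 rows passed 1 RPKM in some of the libraries and 18 in none of them, among them efna2.L and efna2.S, which were listed at 0 throughout. Of the 24 rows, EPHA7 Xelaev18012504m lay at the cut-off, with a control mean of 1.0004 RPKM. EFNB2 Xelaev18000922m had a control mean of 1.41 RPKM but a median of 0.901 RPKM. At stage 9, 23 of the 44 rows had a control mean above 1 RPKM and 18 were above it in all 17 libraries. A further 6 passed it in some libraries and 20 in none. All rows matched to EPHA3, EPHA5, EPHA6, EPHA8 or EPHB2 had control means under 1 RPKM at both stages. The receptors with a row above that mean at either stage were EPHA2, EPHA4, EPHB1, EPHB3 and EPHB4 and, in 1 row, EPHA7, and the ligands were EFNA1, EFNA3, EFNA5, EFNB1 and EFNB2.

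The order of the levels in stage 10.5 controls was led by EPHA4 Xelaev18027778m, whose lowest, median and highest values were 25.4, 38.7 and 52.5 RPKM. EFNA1 Xelaev18040923m followed with 21.9, 37.3 and 48.2 RPKM, and EPHB3 Xelaev18027414m with 25.0, 31.6 and 40.6 RPKM. Of the 23 neighbouring pairs in this order, 22 overlapped in their control ranges. The exception was the step between EPHB4 Xelaev18001054m, at 10.4, 14.9 and 18.0 RPKM, and the next row down, EPHB4 Xelaev18019576m, at 4.24, 7.86 and 9.66 RPKM. RPKM is scaled by length, but how reads that fit both copies of a gene were counted is not stated, so the order is approximate. The sources used here also do not say whether Xelaev18019576m stands for a whole gene. In stage 9 controls the order was led by EPHB3 Xelaev18027414m, with 13.9, 17.5 and 18.1 RPKM, and EPHB4 Xelaev18001054m, with 10.9, 14.8 and 15.9 RPKM, and all 22 neighbouring pairs overlapped.

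The tables of the stages were made separately, so levels between them are described and not tested. The summed RPKM of the EphA rows had a mean of 97.6 ± 20.2 in stage 10.5 controls (SD, n = 6) and 31.0 ± 10.8 in stage 9 controls (SD, n = 5). For the ephrin-B rows the sums were 50.6 ± 7.64 RPKM at stage 10.5 and 12.6 ± 1.96 RPKM at stage 9, and for the ephrin-A rows 87.0 ± 14.9 and 46.2 ± 6.68 RPKM. EphB rows summed to 77.8 ± 16.5 RPKM at stage 10.5 and 57.4 ± 6.76 RPKM at stage 9. EPHA4 and EFNB2 were among the rows with a wide gap between the stages. EPHA4 Xelaev18027778m had 4.59, 0.863, 2.68, 1.75 and 0.273 RPKM in the stage 9 controls, all below its lowest stage 10.5 control, and EFNB2 Xelaev18013082m had 3.22, 0.603, 1.96, 2.08 and 0.439 RPKM, against 17.8 RPKM at the least in stage 10.5 controls. Several rows stood the other way, among them EFNB1 LOC100494328.L. It had 4.34, 5.24 and 6.11 RPKM as lowest, median and highest in stage 10.5 controls. In stage 9 controls it had 7.12, 7.81 and 10.1 RPKM. Control means were also lower at stage 10.5 for EFNA5 Xelaev18008029m, Xelaev18010787m and LOC101730271.S, EFNA3 Xelaev18040919m, both EPHB1 rows and EPHA7 Xelaev18012504m. EFNA5 Xelaev18008029m ran from 1.52 to 4.11 RPKM in stage 10.5 controls and from 5.65 to 10.1 RPKM in stage 9 controls. The higher ephrin-A sum at stage 10.5 therefore does not hold for each of its rows.

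**Figure D1:**
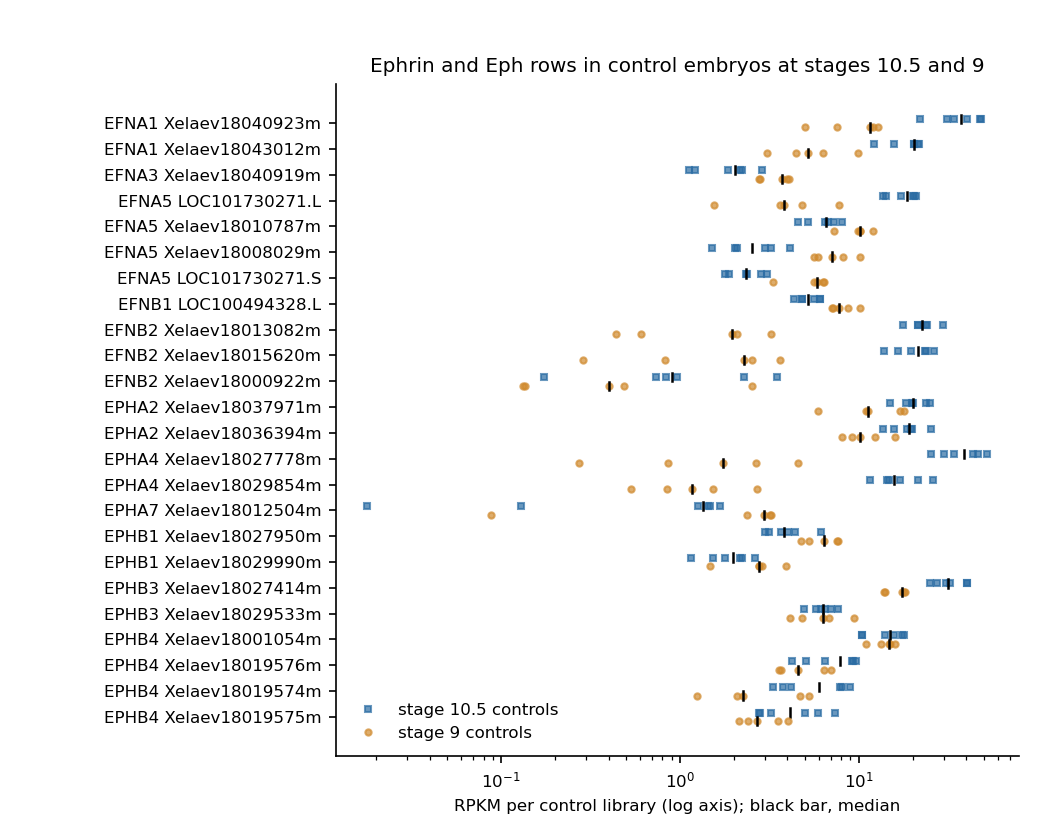
RPKM of each ephrin and Eph row with a control mean above 1 RPKM at either stage, 1 symbol per control library, on a log axis, with stage 10.5 above stage 9 in each row. EPHA4 and the 2 higher EFNB2 rows lie clear of their stage 9 values at stage 10.5, while EPHA7 Xelaev18012504m spreads from 0.0178 to 1.69 RPKM in stage 10.5 controls.

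The ratio between the paired rows of a symbol varied by library at stage 10.5, over a wider range for some symbols than for others. EPHA4 Xelaev18027778m exceeded Xelaev18029854m in all 29 libraries, with a median ratio of 2.16 and a range from 1.501 to 2.859, and EPHB3 Xelaev18027414m exceeded Xelaev18029533m in all 29, with a median ratio of 4.70 and a range from 4.08 to 8.23. EFNB2 Xelaev18013082m and Xelaev18015620m were nearly level, with a median ratio of 1.13 and a range from 0.742 to 1.39. The EFNA1 ratio, Xelaev18040923m over Xelaev18043012m, ranged from 1.12 to 5.27, and the EPHB1 ratio, Xelaev18027950m over Xelaev18029990m, from 0.986 to 3.499. How reads that fit both copies were counted is not stated, which makes a single row less certain than the pair. The EPHB4 rows Xelaev18019574m, Xelaev18019575m and Xelaev18019576m have consecutive identifiers, and the sources used here do not say whether they are parts of 1 gene.

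The bisected embryos show whether the members differ between the side that forms the organizer and the opposite one. EFNB2, a transmembrane ligand that binds EphB receptors and EphA4, was higher in dorsal pieces in its 2 abundant rows once pairs were taken into account, with log2 fold changes of 1.00 and 1.03. EFNB2 Xelaev18013082m had 31.4, 28.7, 20.5, 24.5 and 17.0 RPKM in dorsal pieces, against 15.3, 14.8, 6.61, 16.3 and 7.82 RPKM in the ventral pieces of the same numbers. EFNB2 Xelaev18015620m had 31.2, 25.0, 17.6, 21.4 and 15.3 RPKM in dorsal pieces and 14.5, 13.1, 8.28, 12.1 and 6.63 RPKM in ventral ones. In both rows the dorsal piece was higher in 5 of 5 pairs and the groups did not overlap, which describes rows picked as called and adds no support. EFNA1 Xelaev18043012m, a lipid-anchored ligand, was higher in the dorsal piece of 5 of 5 pairs, with 34.4, 20.1, 20.8, 14.7 and 16.9 RPKM against 28.9, 13.8, 10.5, 9.13 and 10.5 RPKM, and its groups overlapped. The more abundant EFNA1 row, Xelaev18040923m, was higher in 4 of 5 pairs, with 38.6, 42.9, 43.4, 30.8 and 35.8 RPKM in dorsal and 46.6, 36.0, 22.1, 28.2 and 32.5 RPKM in ventral pieces, and was not called (log2 fold change 0.24, adjusted p = 0.770 with the block). The third tested EFNB2 row, Xelaev18000922m, went the other way in 4 of 5 pairs, with 5.46, 0.851, 0.729, 0.581 and 3.66 RPKM in dorsal and 9.95, 0.824, 1.22, 1.72 and 4.04 RPKM in ventral pieces. It was not called either (log2 fold change -0.49, adjusted p = 0.363 with the block).

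The unblocked limma fit called 0 of the 26 tested members between the pieces, where 125 of 18448 rows (0.678%) were called over the whole table. At an unadjusted p below 0.05 there were 5 members, with no share of all rows computed at that threshold, and voom on the recovered reads called 0. Pieces of the same number deviated together, so the fit with the pair as a block is given beside it. That fit called 4 members, all higher in dorsal pieces, where 2.29% of all rows were called and 1.7% were called higher. They were EFNB2 Xelaev18015620m (log2 fold change 1.00, SE 0.07, adjusted p = 0.000574; 0.162 unblocked), EFNB2 Xelaev18013082m (log2 fold change 1.03, SE 0.13, adjusted p = 0.00716; 0.223 unblocked) and EFNA1 Xelaev18043012m (log2 fold change 0.61, SE 0.10, adjusted p = 0.0244; 1 unblocked). The fourth was EPHA2 Xelaev18037971m, a receptor of ephrin-A1 (log2 fold change 0.48, SE 0.09, adjusted p = 0.0374; 0.614 unblocked). In bulk tissue, a smaller share of cells with a message and less message per cell cannot be told apart.

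EPHA2 Xelaev18037971m had 38.2, 28.3, 33.6, 33.3 and 33.5 RPKM in dorsal pieces and 24.6, 17.4, 27.9, 28.3 and 22.4 RPKM in ventral pieces. The groups did not overlap, though the lowest dorsal and the highest ventral value both round to 28.3 RPKM. That adds no support, since the row was picked as called. The second EPHA2 row, Xelaev18036394m, had 35.3, 24.0, 32.0, 21.4 and 24.6 RPKM in dorsal and 20.5, 15.8, 24.4, 28.1 and 15.5 RPKM in ventral pieces. It was higher in 4 of 5 pairs, with pair 4 reversed, and was not called (log2 fold change 0.40, adjusted p = 0.502 with the block). EPHA4, a receptor that binds ligands of both classes, had 63.1, 44.9, 42.8, 41.5 and 51.2 RPKM in dorsal and 36.7, 29.6, 27.0, 43.2 and 20.7 RPKM in ventral pieces in its row Xelaev18027778m. The dorsal piece was higher in 4 of 5 pairs, and pair 4 went the other way. The row was not called (log2 fold change 0.65, SE 0.20, adjusted p = 0.461, or 0.150 with the block). The second EPHA4 row, Xelaev18029854m, showed the same 4 of 5 pairs, with 42.0 RPKM in the dorsal piece of pair 1 and 14.5 to 22.3 in the other dorsal pieces.

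Without pair 1, which was left out after the data were seen, the blocked fit called 3 members. These were EFNB2 Xelaev18015620m (log2 fold change 0.97, adjusted p = 0.00501), EFNB2 Xelaev18013082m (1.04, adjusted p = 0.0377) and EFNA1 Xelaev18043012m (0.70, adjusted p = 0.0244), and EPHA2 was not among them. Without pair 4, also left out after the data were seen, it called 8, and since pair 4 is the one in which EPHA4 ran the other way, that count says nothing about EPHA4. The shares of all rows called in both refits are not given here, so neither count says whether the members stood out. EFNA5 LOC101730271.L had 32.0, 15.5, 14.7, 16.9 and 18.1 RPKM in dorsal and 46.6, 20.5, 12.5, 23.5 and 20.9 RPKM in ventral pieces. EFNB1, EFNA3, EPHB1 and EPHB4 rows had log2 fold changes between -0.24 and 0.19, none called. The median over the 26 tested members was 0.09, against -0.02 over all tested rows. Marker rows were counted only in the unblocked fit, which called 0 of the 26 tested members, so their counts do not match the blocked member calls. In that fit 6 of 15 neural plate and 4 of 24 endoderm marker rows were higher and 9 of 20 ventral marker rows lower in dorsal pieces. Of the ectoderm rows 3 of 20 were lower, and of the mesoderm rows 1 of 24 was higher. The neural plate sum was 1691 to 2063 RPKM in dorsal and 1016 to 1778 RPKM in ventral pieces, the endoderm sum 1364 to 1773 against 731 to 1020, and the ventral sum 916 to 1136 against 1490 to 2337. The part of these markers in the member differences was not tested.

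**Figure D2:**
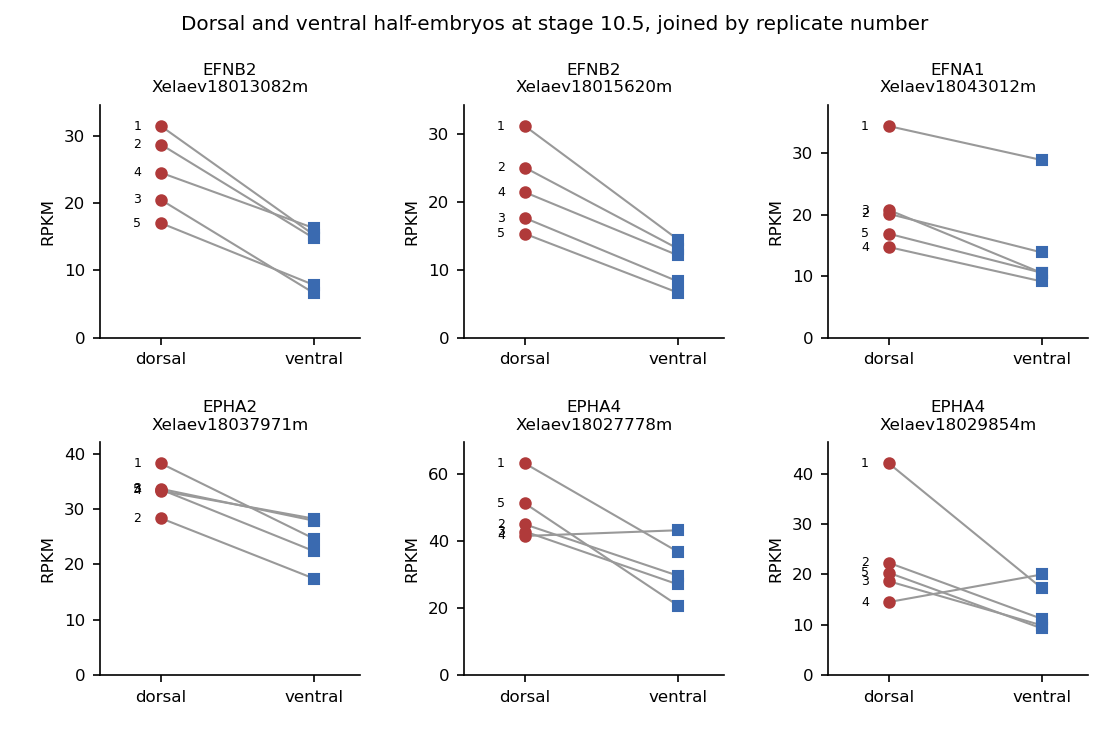
RPKM of 6 ephrin and Eph rows in dorsal (left) and ventral (right) pieces at stage 10.5, with lines joining libraries of the same number. The dorsal library lies higher in 5 of 5 pairs for the EFNB2, EFNA1 and EPHA2 rows drawn, and in 4 of 5 for both EPHA4 rows, with pair 4 the exception. EFNB2 Xelaev18000922m, EFNA1 Xelaev18040923m and EPHA2 Xelaev18036394m are not drawn and did not show 5 of 5.

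The morpholino asks which transcripts change when translation of β-catenin is blocked, and at stage 10.5 early and later β-catenin activity cannot be told apart. At stage 10.5 bCatMO embryos had less EFNB2 in both abundant rows, with log2 fold changes of -0.93 and -0.94. EFNB2 Xelaev18013082m had 15.8, 12.7 and 10.5 RPKM in bCatMO embryos against 24.0, 29.8 and 21.5 RPKM in the controls of their batches (log2 fold change -0.93, SE 0.14, adjusted p = 0.00204). EFNB2 Xelaev18015620m had 16.5, 9.82 and 9.99 RPKM in bCatMO embryos and 23.8, 26.3 and 19.7 RPKM in controls (log2 fold change -0.94, SE 0.17, adjusted p = 0.00658). Neither row's groups overlapped, which adds no support, since the rows were picked as called. Both rows are in the authors' signature of genes, which was chosen on these samples, so their direction is not independent evidence in any comparison here. Without the batch term the second row was not called (log2 fold change -0.75, adjusted p = 0.134). In all, 4 of 24 tested members were called, 2 higher and 2 lower, where 7.15% of all rows were called, 1.98% higher and 5.17% lower.

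The other 2 calls were small rises in rows of EPHB4, a receptor best known as the partner of ephrin-B2. The most abundant EPHB4 row, Xelaev18001054m, and Xelaev18019576m did not rise and were not called, with log2 fold changes of -0.09 and -0.02. EPHB4 Xelaev18019574m had 4.95, 5.02 and 4.49 RPKM in bCatMO embryos and 4.19, 3.33 and 3.76 RPKM in controls (log2 fold change 0.33, SE 0.08, adjusted p = 0.0307). EPHB4 Xelaev18019575m had 3.96, 3.51 and 3.97 RPKM in bCatMO embryos and 3.22, 2.80 and 2.76 RPKM in controls (log2 fold change 0.33, SE 0.09, adjusted p = 0.0375). These calls rested on the batch term and its controls. Without that term the reference was all 6 controls of the stage, and the log2 fold changes were -0.20 and -0.14. The controls of batches 4 to 6, which hold no bCatMO library, had 8.10, 7.81 and 8.89 RPKM in the first row. In the second row they had 5.02, 5.94 and 7.41 RPKM. Leaving out single libraries kept the call in 1 of 6 cases for the first row and 0 of 6 for the second. EPHA4 Xelaev18027778m was lower in 3 of 3 batches without passing the test, at 22.0, 22.3 and 23.7 RPKM in bCatMO embryos and 25.4, 33.9 and 29.9 RPKM in controls (log2 fold change -0.38, SE 0.13, adjusted p = 0.117). Beside this, 24 of 28 organizer marker rows and 11 of 15 neural plate marker rows were lower in bCatMO embryos, and 3 of 20 ventral marker rows were higher and 1 lower. Of the ectoderm rows 5 of 19 were higher, and 4 of 24 mesoderm and 4 of 23 endoderm rows were lower. The summed organizer markers were 596 to 772 RPKM in bCatMO embryos and 1174 to 1588 in controls, and the neural plate markers 1066 to 1341 against 1317 to 1768. Their part in the EFNB2 result was not tested.

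In LiCl embryos the called members were 2 EPHA2 rows and 1 EPHB3 row, which rose, and 1 EFNA5 row, which fell. EPHA2 Xelaev18037971m had 27.4 and 27.6 RPKM in LiCl embryos and 20.2 and 18.4 RPKM in controls (log2 fold change 0.52, SE 0.12, adjusted p = 0.0179). EPHA2 Xelaev18036394m had 25.1 and 23.0 RPKM in LiCl embryos and 19.6 and 15.8 RPKM in controls (log2 fold change 0.42, SE 0.11, adjusted p = 0.0207). EPHB3, a receptor of B-class ligands, had 36.6 and 36.0 RPKM in LiCl embryos and 27.3 and 25.0 RPKM in controls in its row Xelaev18027414m (log2 fold change 0.42, SE 0.11, adjusted p = 0.0254). The second EPHB3 row, Xelaev18029533m, was not called (log2 fold change 0.26). The ligand row EFNA5 LOC101730271.L fell to 8.54 and 12.1 RPKM in LiCl embryos, against 14.2 and 13.8 RPKM in controls (log2 fold change -0.54, SE 0.16, adjusted p = 0.0471). The groups of the 4 called rows did not overlap, which adds no support, since the rows were picked as called and each side has few libraries. These 4 calls came from 24 tested members, a share of 16.7%. That is near the 14.2% called over all rows, of which 3.8% were higher and 10.4% lower in LiCl embryos.

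Each LiCl call rested on 2 libraries a side. Leaving out LiCl library 1 or control library 3 left 0 member calls, leaving out LiCl library 2 or control library 1 left 1, and without the batch term there were 0. The shares of all rows called in these refits are not given here, so the lower counts can follow a change over all rows. EFNB2 Xelaev18013082m was higher in both batches but not called, at 32.9 and 29.8 RPKM in LiCl embryos and 24.0 and 21.5 RPKM in controls (log2 fold change 0.35, SE 0.16, adjusted p = 0.175). In LiCl embryos 15 of 28 organizer and 11 of 15 neural plate marker rows were higher, and 9 of 20 ventral marker rows were lower and 2 higher. Of the ectoderm rows 7 of 19 were lower and 1 higher, and of the mesoderm rows 5 of 24 were higher and 1 lower. The endoderm rows had 1 of 23 higher and 2 lower. The organizer sum was 2298 to 2553 RPKM in LiCl embryos and 1174 to 1394 in controls, and the part of these markers in the member calls was not tested.

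After siamois mRNA, 1 of 24 tested members was called, where 4.16% of all rows were called and 2.34% were called higher. It was EPHA2 Xelaev18036394m, with 18.3 and 22.4 RPKM in Sia embryos and 13.7 and 15.8 RPKM in controls (log2 fold change 0.43, SE 0.11, adjusted p = 0.0406). The call was lost when any of its 4 libraries was left out, with adjusted p between 0.101 and 0.308. EPHA2 Xelaev18037971m was higher in both batches without passing, at 19.9 and 23.1 RPKM in Sia embryos and 15.0 and 18.4 RPKM in controls (log2 fold change 0.33, SE 0.12, adjusted p = 0.195). EFNB2 Xelaev18013082m had 29.7 and 31.6 RPKM in Sia embryos and 29.8 and 21.5 RPKM in controls, higher in 1 of 2 batches (log2 fold change 0.34, SE 0.16, adjusted p = 0.329). Of the marker rows, 15 of 28 organizer rows were higher and 11 of 20 ventral rows lower and 1 higher in Sia embryos. Also there, 10 of 19 ectoderm rows were lower and 2 higher, 8 of 15 neural plate rows higher, and 7 of 24 mesoderm rows lower and 2 higher. The part of these markers in the EPHA2 call was not tested.

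In the libraries labelled Wnt8, limma called 0 of 24 tested members, where 0.462% of all rows were called. At an unadjusted p below 0.05 there were 2 members, with no share of all rows computed at that threshold, and voom on the recovered reads called 0. In these libraries 12 of 20 ventral and 11 of 19 ectoderm marker rows were lower, and 4 of 28 organizer and 3 of 15 neural plate rows higher. EFNB2 Xelaev18015620m was higher in 3 of 3 batches, at 19.4, 20.2 and 26.2 RPKM in Wnt8 libraries and 16.6, 13.9 and 23.5 RPKM in controls (log2 fold change 0.30, SE 0.17, adjusted p = 0.839). The third tested EFNB2 row, Xelaev18000922m, was lower in 3 of 3 batches, at 0.564, 1.22 and 1.89 RPKM in Wnt8 libraries and 0.838, 2.27 and 3.49 RPKM in controls (log2 fold change -0.59, SE 0.18, adjusted p = 0.403). This less abundant row was called in none of the stage 10.5 comparisons. Its log2 fold changes, 0.36 in bCatMO, -0.56 in LiCl, -0.46 in Sia and 0.27 in Cer embryos of stage 10.5, had the opposite sign to those of EFNB2 Xelaev18013082m. They rest on few reads in some batches, and the level of the row varied by batch, with 0 to 7 reads in batch 1 and 66 to 136 in batch 6. Wnt8 and Cer share the same 3 controls, and bCatMO, LiCl and Sia share controls in part, so their values stand side by side without a test between treatments.

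**Figure D3:**
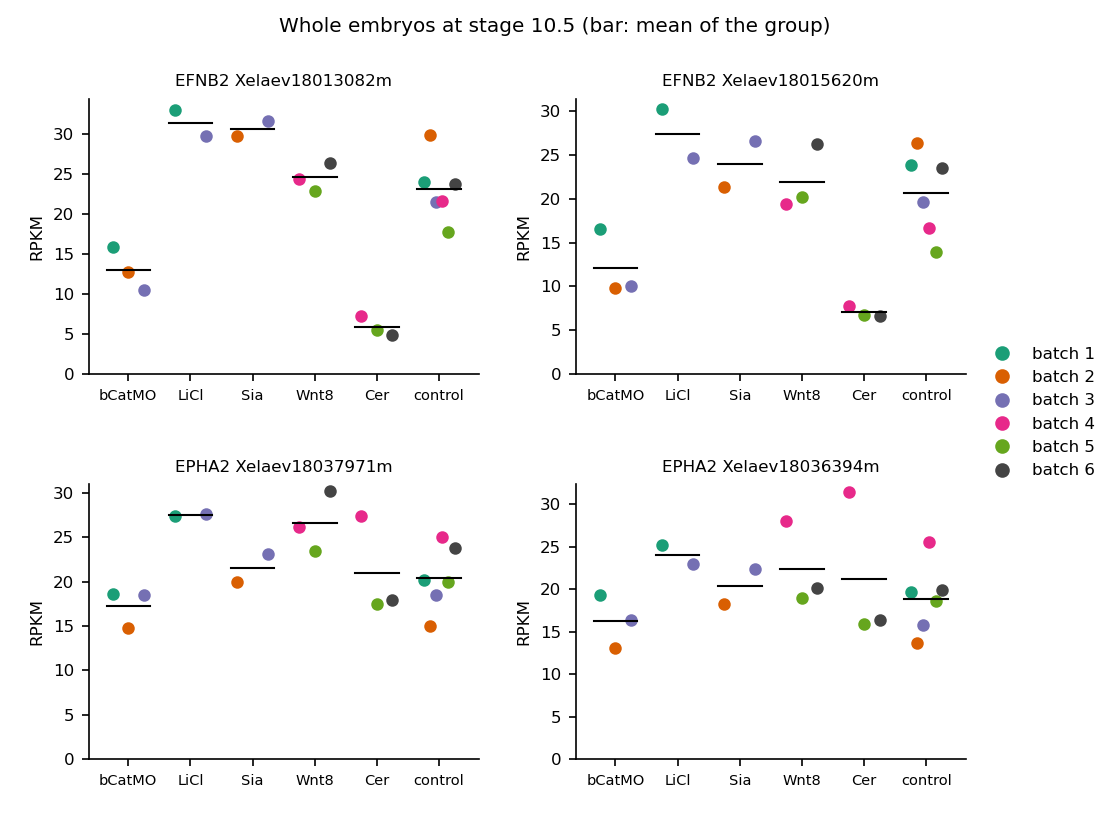
RPKM of EFNB2 rows Xelaev18013082m and Xelaev18015620m and EPHA2 rows Xelaev18037971m and Xelaev18036394m in each whole-embryo library at stage 10.5, coloured by labelled batch, with the group mean as a bar. EFNB2 rows Xelaev18000922m and Xelaev18019327m are not drawn. EFNB2 is at 7.18, 5.47 and 4.91 RPKM (Xelaev18013082m) in Cer embryos, below every control library, and EPHA2 Xelaev18037971m is 27.4 and 27.6 RPKM in LiCl embryos against 20.2 and 18.4 in their controls.

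In Cer embryos some ligands and receptors of each class were lower. At stage 10.5, 7 of 24 tested members were called and all 7 were lower in Cer embryos, where 4.54% of all rows were called and 2.9% were called lower. They were both abundant EFNB2 rows, both EFNA1 rows, both EPHA4 rows and EPHB3 Xelaev18027414m. For each of them Cer was lower in 3 of 3 batches and the groups did not overlap, which describes rows already picked as called and adds no support. The median log2 fold change was -0.15 over the tested members and 0.00 over all rows.

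Among the ligands, EFNB2 Xelaev18013082m fell most, to 7.18, 5.47 and 4.91 RPKM in Cer embryos against 21.6, 17.8 and 23.7 RPKM in controls (log2 fold change -1.77, SE 0.14, adjusted p = 8.36e-06). Its companion row Xelaev18015620m had 7.75, 6.75 and 6.62 RPKM in Cer embryos and 16.6, 13.9 and 23.5 RPKM in controls (log2 fold change -1.27, SE 0.17, adjusted p = 0.000546). In both rows each Cer library was below all 6 controls of the stage. EFNA1 Xelaev18043012m fell to 4.17, 5.34 and 9.49 RPKM in Cer embryos, against 20.4, 15.7 and 20.5 RPKM in controls (log2 fold change -1.57, SE 0.20, adjusted p = 0.000361). The more abundant EFNA1 row, Xelaev18040923m, had 22.0, 13.9 and 24.3 RPKM in Cer embryos and 40.3, 31.1 and 34.3 RPKM in controls (log2 fold change -0.83, SE 0.14, adjusted p = 0.00290). No other ligand row was called. EFNB1 LOC100494328.L had 5.75, 5.74 and 4.72 RPKM in Cer embryos and 6.11, 5.65 and 4.83 RPKM in controls. EFNA5 LOC101730271.L had 16.4, 15.1 and 21.2 RPKM in Cer embryos and 17.3, 20.9 and 20.4 RPKM in controls. EFNB2 Xelaev18000922m was higher in each batch, at 1.44, 2.62 and 3.82 RPKM in Cer embryos and 0.838, 2.27 and 3.49 RPKM in controls (log2 fold change 0.27). EFNA5 Xelaev18008029m was lower in each batch, at 1.80, 1.48 and 1.73 RPKM in Cer embryos and 2.04, 1.52 and 2.99 RPKM in controls (log2 fold change -0.27).

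Among the receptors, EPHA4 Xelaev18027778m had 22.3, 15.4 and 20.4 RPKM in Cer embryos against 43.5, 46.3 and 52.5 RPKM in controls (log2 fold change -1.28, SE 0.13, adjusted p = 7.63e-05). The second row, Xelaev18029854m, had 12.4, 8.82 and 11.4 RPKM in Cer embryos and 17.0, 21.5 and 26.0 RPKM in controls (log2 fold change -0.95, SE 0.13, adjusted p = 0.000703). EPHB3 Xelaev18027414m had 27.8, 18.9 and 22.5 RPKM in Cer embryos and 40.6, 32.5 and 40.3 RPKM in controls (log2 fold change -0.71, SE 0.09, adjusted p = 0.000504). The second, less abundant EPHB3 row, Xelaev18029533m, was not called (log2 fold change -0.43). The Cer libraries were below all 3 batch controls in each of the called receptor rows. EPHA2 was not called, and its row Xelaev18036394m had 31.4, 15.8 and 16.4 RPKM in Cer embryos and 25.5, 18.6 and 19.9 RPKM in controls (log2 fold change -0.07, SE 0.09, adjusted p = 0.821). No EPHB1 or EPHB4 row passed the test, and the most abundant of these, EPHB4 Xelaev18001054m, had 15.1, 16.1 and 14.4 RPKM in Cer embryos and 17.4, 18.0 and 15.8 RPKM in controls (log2 fold change -0.16, SE 0.07, adjusted p = 0.297).

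All 7 calls held when any single library of the comparison was left out. Without the batch term 4 held, and those lost were EFNA1 Xelaev18040923m (adjusted p = 0.213), EPHB3 Xelaev18027414m (0.328) and EPHA4 Xelaev18029854m (0.233). The shares of all rows called in these refits are not given here. Markers of the germ layers moved with these rows: 18 of 24 mesoderm and 20 of 23 endoderm marker rows were lower in Cer embryos and none higher, as were 16 of 20 ventral ones. Of the organizer marker rows 19 of 28 were lower and 2 higher, with a median log2 fold change of -1.26, and 8 of 19 ectoderm rows were lower and none higher. The organizer list holds CER1, the supplied message, and the organizer sum was 4751 to 6477 RPKM in Cer embryos and 1213 to 1508 in controls. Within that sum cer1.S stood at 4247 to 5762 RPKM in Cer embryos. The mesoderm sum was 345 to 454 RPKM in Cer embryos and 1195 to 1309 in controls, and the endoderm sum 182 to 415 against 1219 to 1433. Of the 15 neural plate rows, 8 were higher and 2 lower. The part of any of these markers in the fall of ephrins and receptors was not tested.

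**Figure D4:**
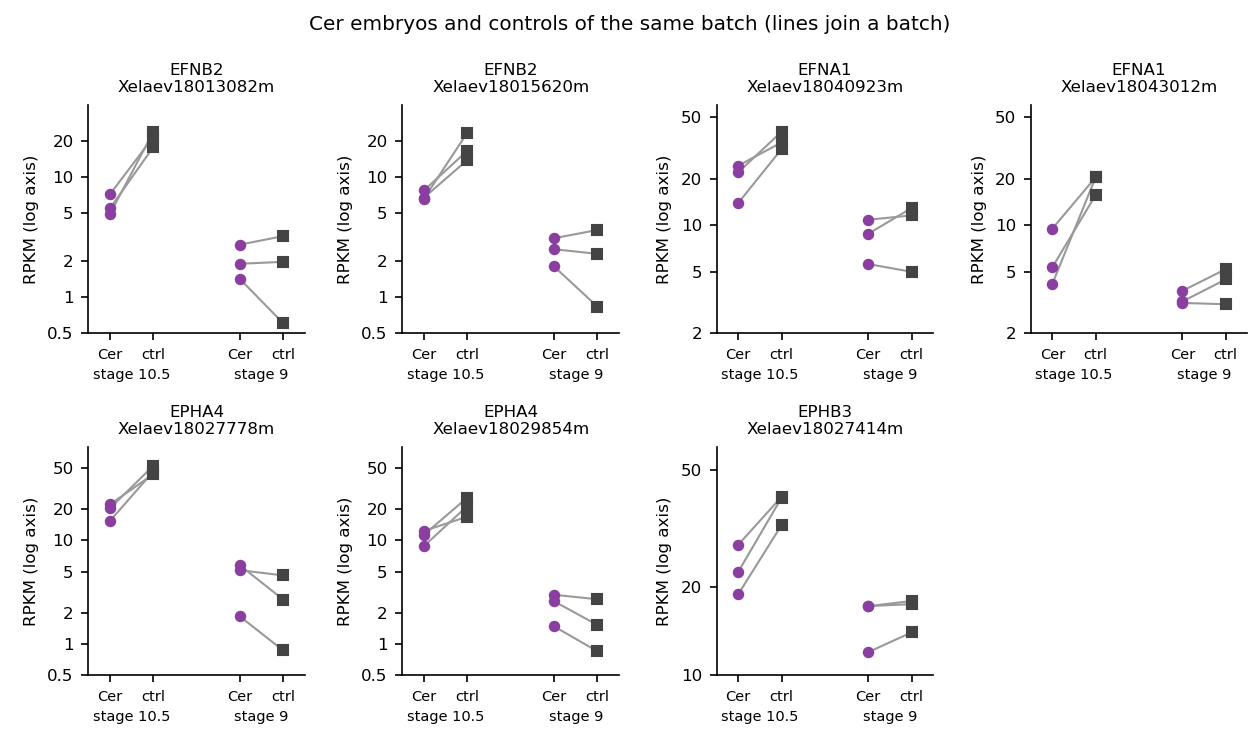
RPKM on a log axis of the 7 rows called lower in Cer embryos at stage 10.5, with lines joining the Cer and control library of a batch, at stage 10.5 (left) and stage 9 (right). At stage 10.5 each Cer library lies below its batch control; at stage 9 the EPHA4 rows lie above it in 3 of 3 batches.

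At stage 9 limma called 0 of 24 tested members in each of the 5 treatments, and voom on the recovered reads called 0 in each. Over all rows 0.696% were called for bCatMO, 0.448% for LiCl, 0.281% for Sia, 0.108% for Wnt8 and 0.399% for Cer. Members at an unadjusted p below 0.05 numbered 2 for bCatMO, 4 for LiCl, 1 for Sia, 4 for Wnt8 and 3 for Cer. The share of all rows at that unadjusted threshold was not computed, so these counts cannot be read against the shares above. EFNB2 Xelaev18013082m had 0.793 and 0.120 RPKM in bCatMO embryos against 2.08 and 0.439 RPKM in controls (log2 fold change -0.80, SE 0.25, adjusted p = 0.363). The batches of this row lay further apart than the treated and control libraries of a batch. In Wnt8 libraries the same row had 4.60, 1.76 and 5.16 RPKM against 3.22, 0.603 and 1.96 RPKM in controls, higher in 3 of 3 batches (log2 fold change 0.90, SE 0.20, adjusted p = 0.230). EPHA4 Xelaev18027778m had 5.48, 1.18 and 7.33 RPKM in Wnt8 libraries and 4.59, 0.863 and 2.68 RPKM in controls (log2 fold change 0.61, SE 0.24, adjusted p = 0.577). In Cer embryos it had 5.16, 1.84 and 5.75 RPKM, against the same control values (log2 fold change 0.64, SE 0.24, adjusted p = 0.825).

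Both EPHA2 rows were below their controls in LiCl embryos at this stage. EPHA2 Xelaev18037971m had 6.54 and 3.56 RPKM in LiCl embryos and 11.3 and 5.90 RPKM in controls (log2 fold change -0.70, SE 0.21, adjusted p = 0.301). EPHA2 Xelaev18036394m had 6.87 and 5.62 RPKM in LiCl embryos and 10.2 and 8.12 RPKM in controls (log2 fold change -0.52, SE 0.18, adjusted p = 0.402). EFNA1 Xelaev18040923m had 7.50 and 2.73 RPKM in LiCl embryos and 12.0 and 7.54 RPKM in controls (log2 fold change -0.98, SE 0.32, adjusted p = 0.385). Many stage 9 levels of EFNB2 and EPHA4 lie near 1 RPKM, where the added 0.5 RPKM understates a fold change.

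Whether a treatment's effect differed between the stages was tested as the difference of the log2 fold changes, stage 10.5 minus stage 9, over 17746 rows tested at both. For Cer 6 of 24 members differed, where 1.26% of all rows did. The differences were -1.95 (SE 0.25, adjusted p = 0.000104) for EFNB2 Xelaev18013082m, -1.92 (SE 0.28, adjusted p = 0.000673) for EPHA4 Xelaev18027778m and -1.50 (SE 0.31, adjusted p = 0.0103) for EFNB2 Xelaev18015620m. They were -1.37 (SE 0.21, adjusted p = 0.000382) for EPHA4 Xelaev18029854m, -1.30 (SE 0.23, adjusted p = 0.00371) for EFNA1 Xelaev18043012m and -0.61 (SE 0.12, adjusted p = 0.00594) for EPHB3 Xelaev18027414m. Both EPHA4 rows and both abundant EFNB2 rows had positive log2 fold changes at stage 9, which were not called, and negative ones at stage 10.5. At stage 9 EFNB2 Xelaev18013082m was higher in Cer embryos only in batch 2, at 1.41 against 0.603 RPKM. It was lower in batches 1 and 3, at 2.73 against 3.22 and 1.89 against 1.96 RPKM. The third tested EFNB2 row, Xelaev18000922m, had -0.16 at stage 9 and 0.27 at stage 10.5.

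For LiCl, 2 of 24 members differed between stages, where 3.29% of all rows did. They were EPHA2 Xelaev18037971m, with a difference of 1.21 (SE 0.25, adjusted p = 0.0132), and EPHA2 Xelaev18036394m, with 0.94 (SE 0.20, adjusted p = 0.0188). Their stage 10.5 effects were positive and their stage 9 effects negative. For bCatMO, Sia and Wnt8 the test called 0 of 24 members each, where 0.175%, 0.355% and 0.175% of all rows differed, and voom on the recovered reads gave 0 as well. The LiCl differences were lost in the absence of LiCl library 2, control library 4 or control library 5 of stage 9, or without the batch terms. Without the batch terms the Cer differences were lost too. The shares of all rows that differed in these refits are not given here.

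**Figure D5:**
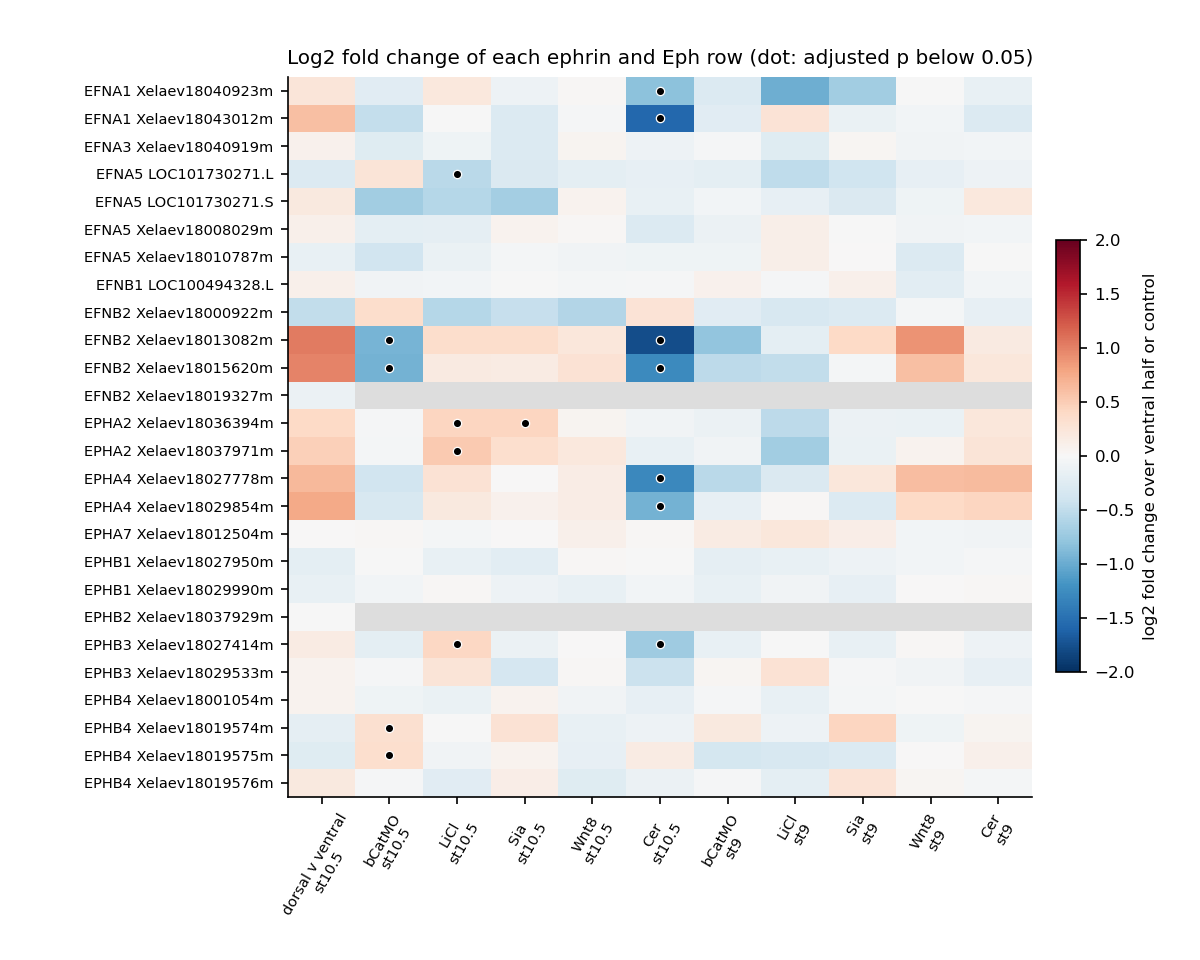
Log2 fold change of each tested ephrin and Eph row (rows) in each comparison (columns), dorsal over ventral pieces or treated over control embryos, with a dot where the unblocked fit of the pieces or the whole-embryo fit called it. Grey cells mark a row below the filter in that comparison. Calls stand in the bCatMO, LiCl, Sia and Cer columns of stage 10.5, and no stage 9 column has one.

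Proteins that carry the signal onward were followed in a list of 50 signalling partners, among them the sheddase, adaptors, kinases and phosphatases. The list had 116 rows at stage 10.5, of which 88 were tested in the pieces and 85 in whole embryos. Over all rows of stage 10.5 the shares called were 0.678% between the pieces, 7.15% for bCatMO and 14.2% for LiCl. They were 4.16% for Sia, 0.462% for Wnt8 and 4.54% for Cer, and the counts of partner rows are read against these shares. Between the pieces the unblocked fit called 1 of 88 rows, nck2.L, an SH2 and SH3 adaptor. It had 3.37 RPKM in dorsal and 1.08 RPKM in ventral pieces on average (log2 fold change 1.25, SE 0.24, adjusted p = 0.0356). In bCatMO embryos 1 of 85 was higher and 4 lower. Here nck2.L averaged 0.838 RPKM in bCatMO embryos and 2.14 RPKM in controls (-0.96, adjusted p = 0.00864), and nck2.S 2.36 RPKM in bCatMO embryos and 3.97 RPKM in controls (-0.64, adjusted p = 0.00203). The 1 higher row was chn1.S, a chimaerin that acts below EphA4 in mouse neurons, which averaged 16.0 RPKM in bCatMO embryos and 8.02 RPKM in controls (0.95, adjusted p = 3.19e-05). LOC100135092.S, matched to RASA1, averaged 2.94 RPKM in bCatMO embryos and 3.63 RPKM in controls (-0.26, adjusted p = 0.0362), and SRC Xelaev18003086m 23.9 RPKM in bCatMO embryos and 28.3 RPKM in controls (-0.23, adjusted p = 0.0176).

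In LiCl embryos 4 of 85 partner rows were lower, which were NCK1 Xelaev18030013m (log2 fold change -0.43), nck2.S (-0.42), rac1.S (-0.29) and LOC100135092.S (-0.28), with adjusted p between 0.0117 and 0.0329 for these 4 rows. In Sia embryos 2 were higher and 1 lower. LOC100493941-like.L, matched to TBC1D24, averaged 5.40 RPKM in Sia embryos and 0.664 RPKM in controls (2.59, adjusted p = 0.00419), inppl1.L 6.48 RPKM in Sia embryos and 4.74 RPKM in controls, and SDCBP Xelaev18043641m, the ephrin-B binding syntenin, 0.506 RPKM in Sia embryos and 2.01 RPKM in controls (-1.28, adjusted p = 0.0299). In Cer embryos 1 of 85 was called, CHN2 Xelaev18033094m, at 1.36 RPKM against 0.456 RPKM in controls (1.02, adjusted p = 0.0491), and in Wnt8 libraries 0 of 85. At stage 9 chn1.S was the 1 call of 86 partner rows in bCatMO embryos, at 23.2 RPKM against 11.9 RPKM in controls (0.96, adjusted p = 0.000168), and the other 4 treatments had 0. The shares of all rows called at stage 9 were 0.696% for bCatMO, 0.448% for LiCl, 0.281% for Sia, 0.108% for Wnt8 and 0.399% for Cer. The medians over the list lay between -0.04 and 0.01 in all 11 comparisons.

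Several members above 1 RPKM were called in no comparison. EPHB4 Xelaev18001054m ran from 9.09 to 18.2 RPKM over the 29 stage 10.5 libraries, with a median of 14.7, and from 10.2 to 15.9 over the 17 stage 9 libraries, with a median of 14.1. EFNB1 LOC100494328.L had a lowest, median and highest value of 2.65, 4.83 and 6.36 RPKM at stage 10.5 and 5.65, 7.71 and 10.7 RPKM at stage 9. EFNA5 Xelaev18010787m had 2.53, 5.76 and 8.39 RPKM at stage 10.5 and 6.99, 9.88 and 12.1 RPKM at stage 9. EPHA7 Xelaev18012504m had 0, 1.09 and 1.82 RPKM at stage 10.5 and 0.0559, 2.92 and 4.05 RPKM at stage 9, and its low values fell in whole batches. In the pieces, EFNB1 had 5.26, 2.69, 5.76, 2.87 and 3.94 RPKM in dorsal and 4.91, 3.08, 3.58, 4.40 and 2.65 RPKM in ventral pieces, groups that overlapped, and EPHB4 Xelaev18001054m had 18.2, 10.3, 15.5, 14.7 and 17.8 RPKM in dorsal and 17.8, 9.57, 13.5, 15.7 and 16.4 RPKM in ventral pieces, which overlapped as well. EFNA3 Xelaev18040919m, a further lipid-anchored ligand, had 1.13, 1.93 and 3.35 RPKM at stage 10.5 and 2.48, 3.24 and 4.16 RPKM at stage 9. EPHB1 Xelaev18027950m had 1.77, 3.43 and 6.17 RPKM at stage 10.5 and 4.70, 5.41 and 7.66 RPKM at stage 9, and its second row Xelaev18029990m was lower in 45 of the 46 libraries. The 22 rows at stage 10.5 and 20 rows at stage 9 with control means at or under 1 RPKM at both stages reached at most 1.92 and 0.819 RPKM in any library.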

How the data were processed

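Poly(A) RNA of whole or bisected embryos was sequenced as 100-base single reads on an Illumina HiSeq from TruSeq libraries, per the labels' protocols. The deposited values are RPKM, made by the authors in a separate table for each stage. TopHat2 2.09 and DESeq are named, with no role, in the submitters' processing notes, and no source used here gives the genome build, annotation or strand setting. In the stage 10.5 table, 43668 rows had an identifier, and 6 rows with a repeated identifier, all at 0, were left out. The values came out as whole reads, within 0.005 of a read, for 100% of the 34080 rows at stage 10.5 and of the 30836 rows at stage 9 that were above 0 in at least 5 libraries. These recovered reads were used for depth and for an alternative test with voom.

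RPKM are not counts, so log2(RPKM + 0.5) was tested with limma 3.58.1 in R 4.3.3 (moderated test with a mean-variance trend), two-sided, for rows at 1 RPKM or more in 2 or more libraries. Adjusted p-values are Benjamini-Hochberg over all rows tested. Each stage had 1 fit of its whole embryos, with terms for group and labelled batch, and the pieces of bisected embryos were fitted on their own, without a block and, beside it, with the pair as a block. Deviations from the group mean correlated at 0.540 to 0.901 between pieces of the same number (5 pairs) and at -0.425 to 0.0498 between pieces of different numbers, so the numbers were taken to pair the pieces. A treatment's effects at both stages were compared by subtracting the log2 fold changes and dividing by the root of the summed squared errors. The scripts were tested on simulated data. No 2 libraries of a group agreed within sampling noise.

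The members, the partner and marker lists and the tests were chosen with earlier results of these data known. All members could be named, with values per library for those called and for the most abundant row of a symbol, and the partner rows named were those with the largest changes among the called. A result for 1 partner row in LiCl embryos is not reported here. Identifiers and human matches are the files' own, and the tables give no coordinates. The library assigned as LiCl replicate 2 of stage 10.5 carries the number 3 in its column and was matched by its batch label. Alternatives were another pseudocount (0.1), no filter, median-of-ratios scaling, voom, no batch term, only a comparison's own libraries, and leaving out single libraries. With no batch term each treated group is set against all controls of its stage.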

Additional observations from a re-analysis of the deposited data

Results flagged for a closer look

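In 100 sets of 4 to 10 libraries of a group, 1 set for each tested member in each such group, 9 held a library far from the rest by Dixon's criterion. Chance alone gives this in about 1 of 20 independent sets of normally distributed values. The sets here share libraries, so the 9 cannot be read against that rate. Of the 9, 6 were bisected-embryo libraries of pair 1. In the dorsal piece of pair 1, EFNA5 LOC101730271.L had 32.0 RPKM (14.7 to 18.1 in the other dorsal pieces), EPHA4 Xelaev18029854m 42.0 RPKM (14.5 to 22.3), EPHB4 Xelaev18019575m 9.20 RPKM (3.04 to 3.90) and EFNB2 Xelaev18019327m 1.29 RPKM (0.165 to 0.255). In the ventral piece of pair 1, EFNA1 Xelaev18043012m had 28.9 RPKM (9.13 to 13.8 in the other ventral pieces) and EFNB2 Xelaev18019327m 1.92 RPKM (0.127 to 0.414).

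The other 3 were stage 9 controls. EPHA7 Xelaev18012504m had 0.0874 RPKM in control 2, against 2.38 to 3.22 in the other controls. EFNA5 LOC101730271.S had 3.30 RPKM in control 4, against 5.64 to 6.39, and EFNB2 Xelaev18000922m had 2.55 RPKM in control 3, against 0.133 to 0.485.

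The effect of a treatment differed between stages, by the test of the difference itself, for 8 results. For LiCl the stage 10.5 minus stage 9 difference of the log2 fold changes was 1.21 for EPHA2 Xelaev18037971m and 0.94 for EPHA2 Xelaev18036394m. For Cer it was -1.95 for EFNB2 Xelaev18013082m, -1.92 for EPHA4 Xelaev18027778m, -1.50 for EFNB2 Xelaev18015620m, -1.37 for EPHA4 Xelaev18029854m, -1.30 for EFNA1 Xelaev18043012m and -0.61 for EPHB3 Xelaev18027414m.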

How the results depend on the processing

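Between dorsal and ventral pieces the count of members called was 0, and it was 4 with the replicate block, 3 with the block and without pair 1, and 8 with the block and without pair 4, both pairs left out after the data were seen; without single libraries it was 0 throughout. For bCatMO at stage 10.5 the count of 4 became 2 with no filter, 2 by voom, 1 with no batch term (no replicate block), 2 with only that comparison's libraries, and 2 to 4 without single libraries. With no batch term, and so against all 6 controls, the log2 fold changes of EPHB4 Xelaev18019574m and Xelaev18019575m turned to -0.20 and -0.14. For LiCl the count of 4 became 2 with no filter, 0 with no batch term, 8 with only its own libraries and 0 to 1 without single libraries. For Sia the 1 call became 0 with no filter, 0 with no batch term and 0 when each of its 4 libraries was left out in turn. For Cer the 7 calls became 4 with no batch term and 7 to 8 without single libraries. At stage 9, LiCl had 3 calls in place of 0 with only its own libraries. The stage difference for LiCl (2) became 0 with no batch terms, 6 with only its own libraries and 0 to 2 without single libraries. For Sia (0) it ranged from 0 to 1 without single libraries, the 1 arising without Sia library 2 of stage 9, and for Cer (6) it became 0 with no batch terms and 5 to 6 without single libraries. The causes were not tested, except that fits of fewer libraries have fewer degrees of freedom by construction. Apart from the replicate block, the shares of all rows called under these alternatives are not given here. A changed count of members can therefore follow a change over all rows. Other alternatives kept these counts within 1.5 times. Depth limits rows near or under 1 RPKM, and LiCl and Sia rest on 2 libraries a stage.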

Other observations

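EPHA7 Xelaev18012504m was low in whole batches, whatever the treatment. At stage 9 the 3 libraries of batch 2 had 0.0559 to 0.0874 RPKM, from 6 to 10 reads, and the other 14 libraries had 2.38 to 4.05 RPKM, from 149 to 312 reads. At stage 10.5, 8 libraries (batches 1 and 5 and bisected-embryo pair 4) had 0 to 0.218 RPKM, from 0 to 15 reads, and the other 21 had 0.340 to 1.82 RPKM, from 17 to 133 reads. EPHA5 LOC100494929-like.L stood higher in whole batches, at 0.427 to 0.625 RPKM in batch 3 of stage 10.5, 0.887 to 1.02 in bisected-embryo pair 1, 0.496 to 0.633 in pair 3 and 0.519 to 0.646 in batch 5 of stage 9, and at most 0.0839 RPKM in all other libraries. EFNA5 LOC101730271.S had 2.16 to 3.30 RPKM in batch 4 of stage 9 and 4.52 to 7.56 RPKM in the other batches of that stage.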
